A study of Homo sapiens with 15 samples.

Results

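A group of 9 genes of epidermal growth factor receptor (EGFR) signalling was followed across PSN-1 libraries, out of the 26485 gene symbols counted. They are 4 ligands (AREG, EREG, HBEGF and TGFA), 3 receptors (EGFR, ERBB2 and ERBB3) and 2 adaptors of the GAB family (GAB1 and GAB2). Of these, 8 were named by symbol for their place in the pathway, and GAB2 was added because of its high level in the siMondoA libraries. GAB2 values in any comparison that uses the siControl or siMondoA libraries are therefore a description, without a test, and counts of changed genes in those comparisons are out of 8. The genes followed and the gene lists used below were chosen with earlier results of these data known. Their counts beside the shares of all genes are therefore descriptions too.

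The ligands are made as membrane-bound precursors, which metalloproteases such as ADAM17 cut to release the active growth factor. A released ligand binds EGFR, which pairs with itself or with ERBB2 or ERBB3; ERBB2 has no known ligand of its own, and ERBB3 has a weak kinase and passes signals on through phosphatidylinositol 3-kinase. Phosphorylated receptors recruit GRB2 and, through it, the GAB scaffolds, which bind the phosphatase SHP2 (gene PTPN11) and phosphatidylinositol 3-kinase and so feed the RAS-ERK and AKT pathways. EGFR and its ligands are known to take part in the formation of pancreatic ductal adenocarcinoma (PDAC).

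PSN-1 is an established human PDAC line. In a first experiment its cells received a control siRNA (siControl), a siRNA against MondoA (siMondoA; its gene is MLXIP) or a siRNA against MLX (siMLX), the partner with which MondoA binds DNA. In a second experiment cells were given either DMSO as vehicle or the compound SBI-477, called a MondoA inhibitor in the labels. Each group had 3 libraries, all from cells harvested after 72 hours, and nothing in the labels says that these were separate cultures, so p-values measure only the spread between libraries, which may be technical. The labels give no rescue, no further siRNA sequence and no drug dose, and RNA does not show whether a ligand was shed or a receptor was active.

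Levels are given as CPM (counts relative to the library's scaled total, with TMM factors) for replicates 1, 2 and 3 in that order. A gene is said to rise or fall only if its adjusted p was under 0.05 (quasi-likelihood test of edgeR, Benjamini-Hochberg over all genes tested), and log2 fold changes carry their standard error. Libraries held 11227343 to 14731691 counts in the siRNA experiment and 23315440 to 30480362 in the drug experiment, so that 3 counts, taken as the detection floor, correspond to 0.204 to 0.267 CPM and 0.0984 to 0.129 CPM. MLXIP was at 83.6, 65.8 and 88.6 CPM in siControl against 22.6, 23.4 and 15.7 CPM in siMondoA, and MLX was at 53.4, 58.8 and 53.0 CPM in siControl against 11.9, 7.15 and 7.69 CPM in siMLX. Keratin and adhesion genes of epithelium summed to between 1427 and 2803 CPM in every library, nearly all from the keratins, with all 7 detected. After siMondoA CDH1 rose by 2.38 ± 0.37 on the log2 scale (edgeR adjusted p = 0.00215) and MUC1 fell (-0.67 ± 0.22, 0.0469). The other 5 did not pass, where 14.2% of all genes tested rose and 12.9% fell. CDH1 was at 1.06 to 3.88 CPM in the drug libraries. A list of 7 leukocyte genes summed to 55.3 to 68.8 CPM in siControl, 72.4 to 93.1 CPM in siMondoA, 69.7 to 100.1 CPM in siMLX and 49.3 to 77.2 CPM in the drug libraries, nearly all from CD68, CD14 and LYZ; PTPRC was at or near 0 and CD3E at 0 throughout. After siMondoA CD68 rose by 1.06 ± 0.16 (edgeR adjusted p = 0.00178) and CD14 fell (-0.47 ± 0.13, 0.0233). The fibroblast and pericyte list summed to 516 to 810 CPM in the siRNA libraries and 51.7 to 302 CPM in the drug libraries. The part of these lists in the results was not tested.

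Libraries that stood apart bear on several results. siMLX replicate 2 had CHAC1, a stress response gene, at 102 CPM, against 0.71 and 1.83 CPM in the other siMLX libraries. In the drug experiment the libraries numbered 2 went against the other pairs. TXNIP, a well-known MondoA target, was at 145, 39.2 and 204 CPM in the libraries labelled DMSO and at 74.6, 121 and 41.5 CPM in those labelled SBI-477. The fold changes in the authors' deposited table were matched to a median absolute difference of 0.195 with the labels as given and of 0.00446 with the libraries labelled DMSO 2 and SBI-477 2 exchanged. Libraries keep their labels here, and drug results are also given for replicates 1 and 3 alone.

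AREG and EREG are neighbours in a cluster of EGFR ligand genes on chromosome 4 and both stand on the plus strand. In GENCODE v29 on GRCh38, EREG runs from 74365143 to 74388751 and AREG from 74445134 to 74455009, 56382 bases apart. The 250 bases before the RefSeq start site (GRCh38.p14) are shown for these ligands, whose transcripts moved together, and for GAB2 (chromosome 11, 78215297 to 78418348, minus strand), which was selected for its level. Capitals mark matches, on either strand, to 6 motifs: the E-box CACGTG that MondoA and MLX share with MYC, the AP-1 element TGANTCA, the cyclic AMP response element TGACGTCA, the ATF4 composite element TGATGNAA, the NF-kB element GGGNNTTCC and the TATA box TATAAA. The windows are chr4:74444886-74445135 on the plus strand for AREG, chr4:74364895-74365144 on the plus strand for EREG and chr11:78417821-78418070 on the minus strand for GAB2.
AREG: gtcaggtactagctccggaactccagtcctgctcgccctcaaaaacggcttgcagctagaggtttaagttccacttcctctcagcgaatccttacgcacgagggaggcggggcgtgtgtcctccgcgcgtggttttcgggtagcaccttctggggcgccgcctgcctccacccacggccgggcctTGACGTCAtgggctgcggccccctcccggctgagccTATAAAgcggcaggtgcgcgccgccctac
EREG: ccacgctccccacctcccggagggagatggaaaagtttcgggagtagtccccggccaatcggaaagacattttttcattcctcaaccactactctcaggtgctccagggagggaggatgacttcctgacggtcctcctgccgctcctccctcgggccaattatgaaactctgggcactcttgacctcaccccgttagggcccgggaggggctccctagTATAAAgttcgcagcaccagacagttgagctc
GAB2: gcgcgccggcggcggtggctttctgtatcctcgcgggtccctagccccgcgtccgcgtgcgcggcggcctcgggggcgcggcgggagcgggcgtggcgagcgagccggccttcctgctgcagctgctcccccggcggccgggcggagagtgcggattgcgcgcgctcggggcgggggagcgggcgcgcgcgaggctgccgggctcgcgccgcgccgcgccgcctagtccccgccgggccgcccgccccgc

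The AREG window held a cyclic AMP response element that begins 65 bases before the start site and a TATA box that begins 29 bases before it. The EREG window held a TATA box 32 bases before the start and no other match, and the GAB2 window, at the first of 2 RefSeq starts of that gene, held none of the 6 motifs. The window at the other GAB2 start (chr11:78341920-78342169, minus strand) held none either and had a GC content of 41.2%. Among 35116 windows of the same length the shares with a match were 1.65% for the cyclic AMP response element, 10.7% for the TATA box, 6.34% for the E-box, 6.57% for AP-1, 3.14% for the ATF4 element and 5.78% for NF-kB. GC content was 65.2% for AREG, 58% for EREG and 84% for the GAB2 window shown, against a median of 58% over the same 250 bases of all windows. RefSeq windows were found for 7 of the 9 genes. The AREG, EREG and GAB2 windows differ in motif content and composition, and a letter match does not show that a factor binds there.

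In siControl EREG and AREG were the most abundant of these transcripts per length. Mean RPKM (CPM per kilobase of exon) there was 26.1 for EREG, 17.2 for AREG, 8.17 for EGFR, 7.13 for TGFA, 3.89 for HBEGF, 2.48 for ERBB2, 0.989 for ERBB3, 0.184 for GAB2 and 0.134 for GAB1. Libraries of EGFR and TGFA overlapped in that order, as did those of GAB2 and GAB1. DMSO libraries, normalised separately, had EREG first at 54.9 RPKM, then HBEGF at 11.5, AREG at 9.82, EGFR at 8.12, TGFA at 6.10, ERBB2 at 3.15, ERBB3 at 0.256, GAB2 at 0.219 and GAB1 at 0.0528. In DMSO the libraries of each neighbouring pair from HBEGF down to TGFA overlapped, as did those of ERBB3 and GAB2. In siMondoA AREG led at 232 RPKM, followed by EREG at 188, HBEGF at 13.9, EGFR at 12.3, GAB2 at 6.86, TGFA at 6.25, ERBB2 at 2.32, ERBB3 at 0.620 and GAB1 at 0.0816. There the libraries of AREG and EREG overlapped, and so did those of each neighbouring pair from HBEGF down to TGFA.

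**Figure D1:**
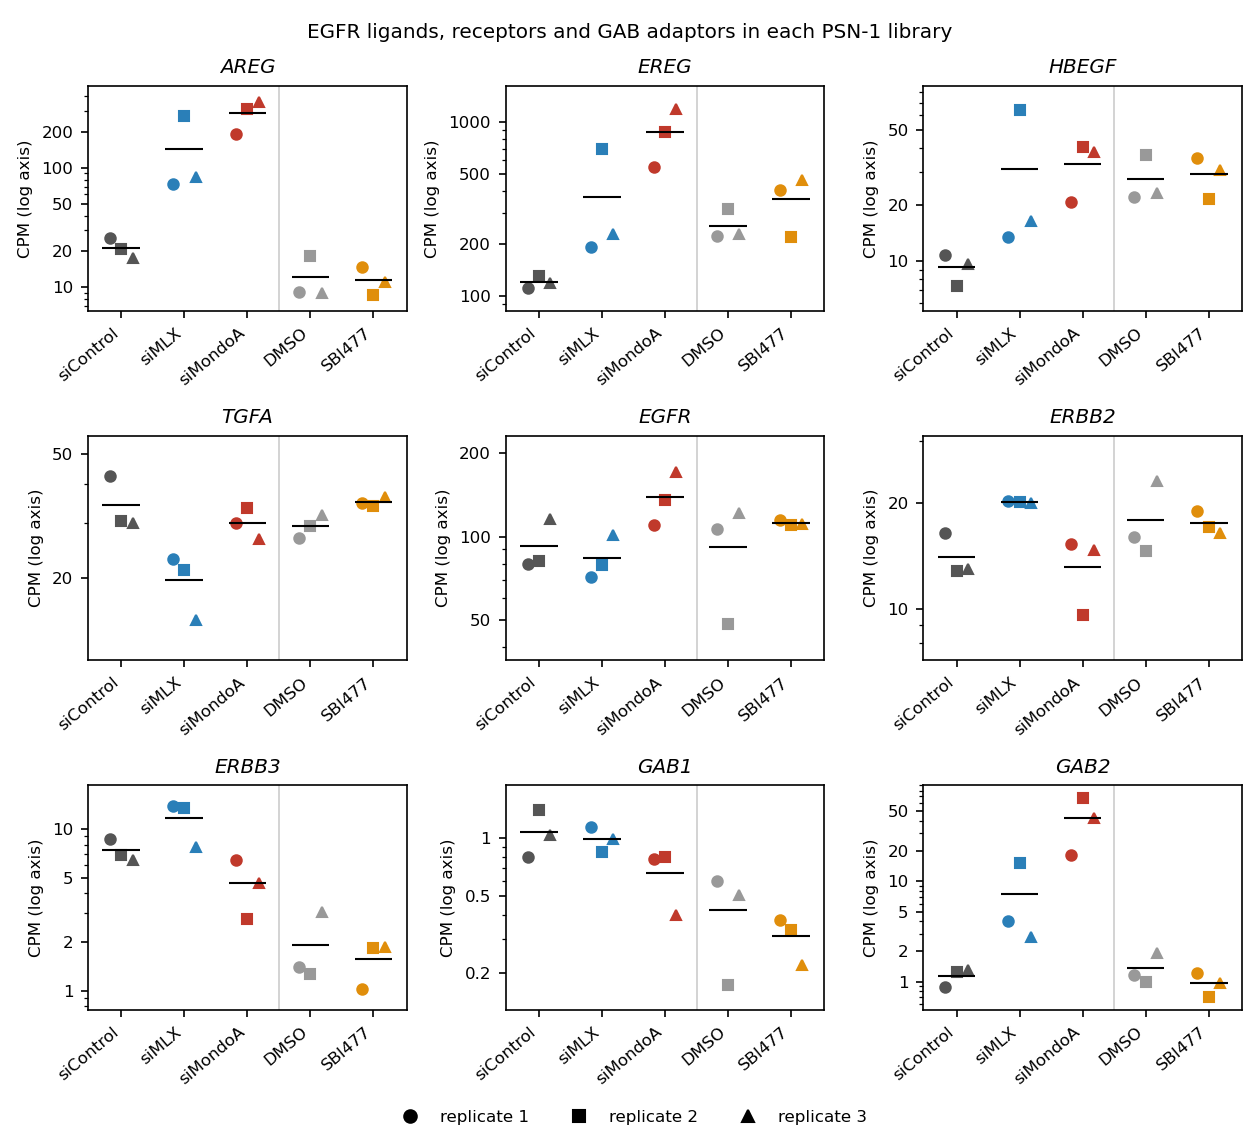
Level of each of the 9 genes in every library, in CPM on a log axis, with 1 panel per gene. Points are libraries, their shape gives the replicate number and the black bar is the group mean of 3; the grey line separates the siRNA experiment from the drug experiment, whose values were normalised separately. In the AREG panel all siMondoA points lie between 192 and 360.5 CPM and all siControl points between 17.5 and 25.8 CPM.

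The comparison of siMondoA with siControl asks how these transcripts change with siRNA against MondoA. Among the ligands, AREG, EREG and HBEGF rose and TGFA did not pass the test. None of the receptors and not GAB1 passed. In all, 3 of 8 genes rose and 0 fell, against 14.2% and 12.9% of the 13001 genes tested. DESeq2 and edgeR at an unadjusted p under 0.05 also gave 0 lower.

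AREG encodes amphiregulin, a low-affinity EGFR ligand. It was at 25.8, 20.8 and 17.5 CPM in siControl against 192, 312 and 360.5 CPM in siMondoA. Every siMondoA library stood far above every siControl library, and AREG rose 13.5-fold (log2 fold change 3.76 ± 0.49, edgeR adjusted p = 0.00104). In bulk RNA, a higher level per cell and a larger share of expressing cells cannot be told apart. EREG, which encodes epiregulin, a ligand of EGFR and ERBB4, was at 111, 131 and 119 CPM in siControl against 551, 872 and 1186 CPM in siMondoA. The groups were again apart, and EREG rose 7.22-fold (2.85 ± 0.46, edgeR adjusted p = 0.00262).

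HBEGF encodes heparin-binding EGF-like growth factor. It was at 10.7, 7.36 and 9.71 CPM in siControl against 20.6, 40.8 and 38.2 CPM in siMondoA. The libraries did not overlap, with siMondoA replicate 1 the nearest to the controls, and HBEGF rose 3.58-fold (1.84 ± 0.53, edgeR adjusted p = 0.0285). That call was lost without any one of the siControl libraries or without siMondoA replicate 2 or 3, with edgeR adjusted p between 0.0714 and 0.102. TGFA, which encodes transforming growth factor alpha, was at 42.3, 30.3 and 30.0 CPM in siControl against 30.0, 33.4 and 26.6 CPM in siMondoA. These overlapped (-0.19 ± 0.19, edgeR adjusted p = 0.489).

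EGFR itself was at 79.7, 82.0 and 116 CPM in siControl against 111, 136 and 171 CPM in siMondoA. The highest control lay within the siMondoA range, though each siMondoA library was above the siControl library of the same number. The difference fell just short of the threshold (0.59 ± 0.20, edgeR adjusted p = 0.0506). It passed by DESeq2 (adjusted p = 0.0306), and by edgeR without siMondoA replicate 1 (adjusted p = 0.0225) or siControl replicate 3 (0.0346). It also passed by edgeR with the replicate number as a block, and in the authors' deposited table (0.59, adjusted p = 0.00171). Whether same-numbered libraries were paired is not known. ERBB2, the preferred dimer partner, was at 16.4, 12.8 and 13.0 CPM in siControl against 15.2, 9.61 and 14.6 CPM in siMondoA (-0.09 ± 0.19, edgeR adjusted p = 0.735). ERBB3 was at 8.70, 6.89 and 6.45 CPM in siControl against 6.40, 2.78 and 4.64 CPM in siMondoA. Although those ERBB3 libraries did not overlap, by a margin of siMondoA replicate 1 under siControl replicate 3, the difference did not pass (-0.67 ± 0.31, edgeR adjusted p = 0.134); it passed without siMondoA replicate 1, with edgeR adjusted p = 0.0436. A few exon bases of EGFR and ERBB2 are shared with genes on the opposite strand, 186 with EGFR-AS1 and 194 with PGAP3, and of ERBB3 31 bases with AC034102.2; the sources used here do not say how the counting treated strand.

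GAB1 was scarce, at 9, 18 and 16 counts (0.80, 1.39 and 1.04 CPM) in siControl against 10, 10 and 5 counts (0.78, 0.79 and 0.40 CPM) in siMondoA. Its difference did not pass (-0.71 ± 0.37, edgeR adjusted p = 0.176). GAB2, chosen for its rise, went from 10, 16 and 20 counts (0.89, 1.24 and 1.30 CPM) to 234, 845 and 531 counts (18.3, 67.1 and 42.5 CPM). That is a fitted ratio of 36.5 (5.19 ± 0.72), given with no test. By mean RPKM GAB2 thus went from beside GAB1 in siControl to beside EGFR and TGFA in siMondoA.

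**Figure D2:**
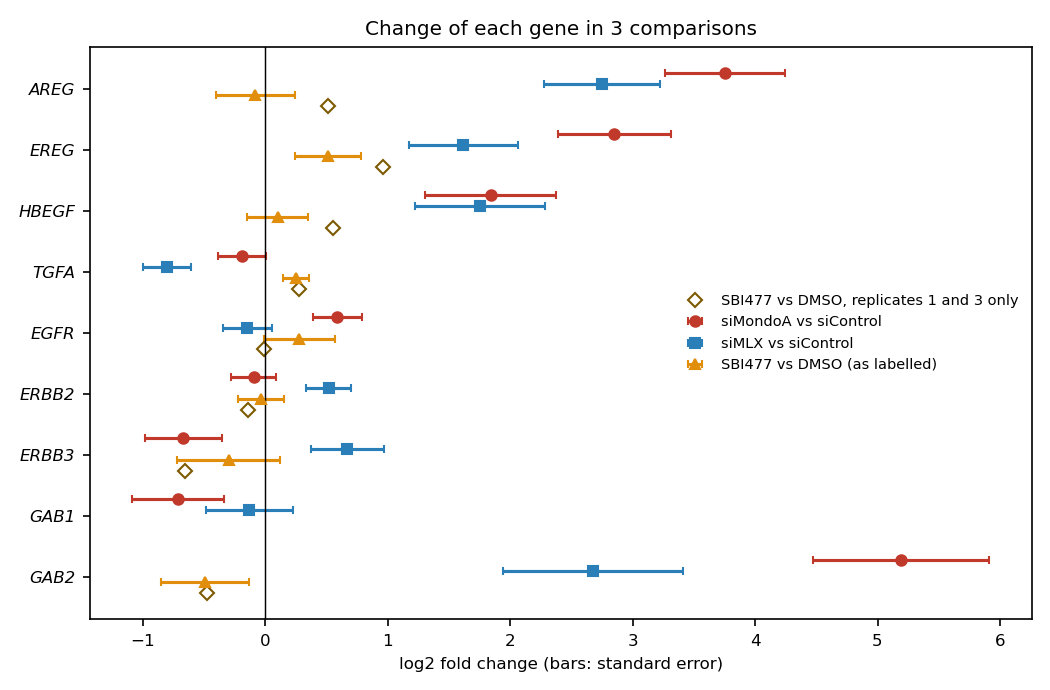
Log2 fold change of each of the 9 genes in siMondoA against siControl (circles), siMLX against siControl (squares) and SBI-477 against DMSO as labelled (triangles). Bars are 1 standard error, derived from the edgeR test. Open diamonds give the drug comparison with replicates 1 and 3 only. AREG, EREG, HBEGF and GAB2 lie to the right for both siRNAs; GAB2 was chosen for its siMondoA value and GAB1 could not be fitted in the drug libraries.

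siRNA against MLX was compared with the same siControl libraries, so its values are not independent of those above. AREG and EREG rose and TGFA fell, which makes 2 of 8 higher and 1 lower, against 3.72% and 4.69% of the 13001 genes tested. HBEGF, the receptors and GAB1 did not pass.

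AREG was at 73.3, 273 and 83.4 CPM in siMLX, above every control, and rose 6.71-fold (2.75 ± 0.47, edgeR adjusted p = 0.00881). EREG was at 190, 694 and 226 CPM and rose 3.07-fold (1.62 ± 0.44, edgeR adjusted p = 0.0484). HBEGF was at 13.4, 63.8 and 16.5 CPM, also above every control, but did not pass (1.76 ± 0.53, edgeR adjusted p = 0.0682, or 0.0350 without siMLX replicate 1). For each of these ligands siMLX replicate 2, the library that stood apart, was the highest by far. Without it AREG still rose (1.88, edgeR adjusted p = 0.00276), whereas EREG was no longer called (0.79, edgeR adjusted p = 0.0828) and HBEGF was at 0.69 (edgeR adjusted p = 0.166). EREG was also not called without siMLX replicate 3 or any one siControl library (edgeR adjusted p from 0.0558 to 0.161), nor AREG without siControl replicate 2 (edgeR adjusted p = 0.0509).

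TGFA went the other way, at 23.0, 21.2 and 14.7 CPM in siMLX, each below the lowest control. It fell (log2 fold change -0.80 ± 0.20, edgeR adjusted p = 0.0342) and replicate 2 did not stand out. The call was lost without siMLX replicate 3 (edgeR adjusted p = 0.0960) or any one siControl library (0.0579 to 0.134). EGFR was at 71.4, 78.9 and 101 CPM (-0.14 ± 0.20, edgeR adjusted p = 0.700). ERBB2 was at 20.2, 20.1 and 20.03 CPM, above every control without passing the test (0.52 ± 0.18, edgeR adjusted p = 0.105). ERBB3 was at 13.8, 13.5 and 7.77 CPM, which overlapped the controls (0.67 ± 0.30, edgeR adjusted p = 0.188).

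GAB1 stayed at 13, 11 and 13 counts (1.15, 0.85 and 0.99 CPM) in siMLX (-0.13 ± 0.35, edgeR adjusted p = 0.858). GAB2 was at 46, 200 and 37 counts (4.06, 15.4 and 2.82 CPM), above the controls in each library and below each siMondoA library. Its fold change over siControl was 2.68 ± 0.74, and 1.55 without siMLX replicate 2, given with no test because the controls were part of its selection.

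The direct contrast of siMondoA with siMLX tests where the siRNAs differed. ERBB3 and EGFR differed, 1 of 8 genes in each direction, against 6.66% higher and 6.21% lower in siMondoA of the 13001 genes tested. EGFR was higher in siMondoA (0.73 ± 0.20, edgeR adjusted p = 0.0382), with no siMondoA library below a siMLX library. ERBB3 was lower in siMondoA (-1.34 ± 0.31, edgeR adjusted p = 0.0200), likewise without overlap. Both calls were lost without siMondoA replicate 2 or 3 or siMLX replicate 1, with edgeR adjusted p from 0.0803 to 0.144 for EGFR and from 0.0504 to 0.0727 for ERBB3. They were also lost when only these libraries were fitted, with edgeR adjusted p = 0.0685 for EGFR and 0.0632 for ERBB3.

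The ligands did not pass in that contrast, with AREG at 1.01 ± 0.44 (edgeR adjusted p = 0.151), EREG at 1.23 ± 0.44 (0.0867), HBEGF at 0.09 ± 0.50 (0.923) and TGFA at 0.61 ± 0.20 (0.0649). These calls turned on siMLX replicate 2. Without it AREG was 1.88 higher in siMondoA (edgeR adjusted p = 0.00103), EREG 2.06 (0.000940), HBEGF 1.15 (0.0155) and TGFA 0.68 (0.0490), so that 6 of 8 genes were called; without that library 2970 genes were called in all, against 1673 with it. In that library AREG and EREG lay within the siMondoA range and HBEGF above it. The stress gene CHAC1, at 102 CPM, and the early response gene EGR1, at 368 CPM against 90.2 and 83.7 CPM in the other siMLX libraries, were also within the siMondoA range. Whether the state of that library accounts for its ligand levels was not tested. EREG was also called without siMondoA replicate 1 (1.48, edgeR adjusted p = 0.0449). The remaining genes were at -0.61 ± 0.18 for ERBB2 (edgeR adjusted p = 0.0533, or 0.0364 without siMondoA replicate 1), -0.58 ± 0.38 for GAB1 (0.327) and, untested, 2.51 ± 0.59 for GAB2.

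Across libraries AREG, EREG and HBEGF varied together. Over the 15 libraries, each centred on the mean of its experiment, log2 CPM of AREG and EREG correlated at r = 0.947, AREG and HBEGF at 0.924 and EREG and HBEGF at 0.906. TGFA did not follow them, at -0.25 with AREG, -0.09 with EREG and -0.20 with HBEGF. These are descriptions of libraries that share groups, so they carry no p.

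GAB2 followed AREG and EREG in the siRNA libraries only, at r = 0.951 and 0.975 over those 9 libraries and at -0.07 and -0.11 over the 6 drug libraries; this difference was not tested, and GAB2 was chosen on siMondoA libraries. ERBB2 and ERBB3 correlated at 0.809 over the 15. Among the 12799 genes that passed the filter in both tables, the nearest to EREG were the cytokine gene IL1A (0.983), the activin subunit gene INHBA (0.980) and GCH1 (0.976), the first enzyme of tetrahydrobiopterin synthesis. AREG was nearest to NFKBIE, an inhibitor of NF-kB (0.972), UPP1, uridine phosphorylase (0.970), and RNF19B (0.966). HBEGF was nearest to the kinase gene NUAK1 (0.956), SH3KBP1, whose product binds CBL (0.953), and the cytokine gene IL11 (0.951).

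GAB2 was nearest to the kinase gene TAOK3 (0.983), the transcription factor gene RUNX2 (0.973) and the cytokine gene LIF (0.966). As GAB2 was chosen for its siMondoA level, high r with genes raised there follows in part from that choice. In the 6 drug libraries alone, where GAB2 had 17 to 61 counts, TAOK3 was at 0.85, RUNX2 at 0.37 and LIF at 0.31. The receptors had other neighbours. EGFR was nearest to GPATCH2L (0.942) and DNAJC13 (0.942), and ERBB2 to AIM1 (0.932), ENTPD2 (0.898) and STAR (0.895). ERBB3 was nearest to AP4M1 (0.884), EMC2 (0.876) and COL9A3 (0.862), TGFA to MANSC1 (0.935), SMDT1 (0.927) and PSMB8-AS1 (0.905), and GAB1, from few counts, to JRKL (0.893), AP3M2 (0.869) and ZFP62 (0.865).

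**Figure D3:**
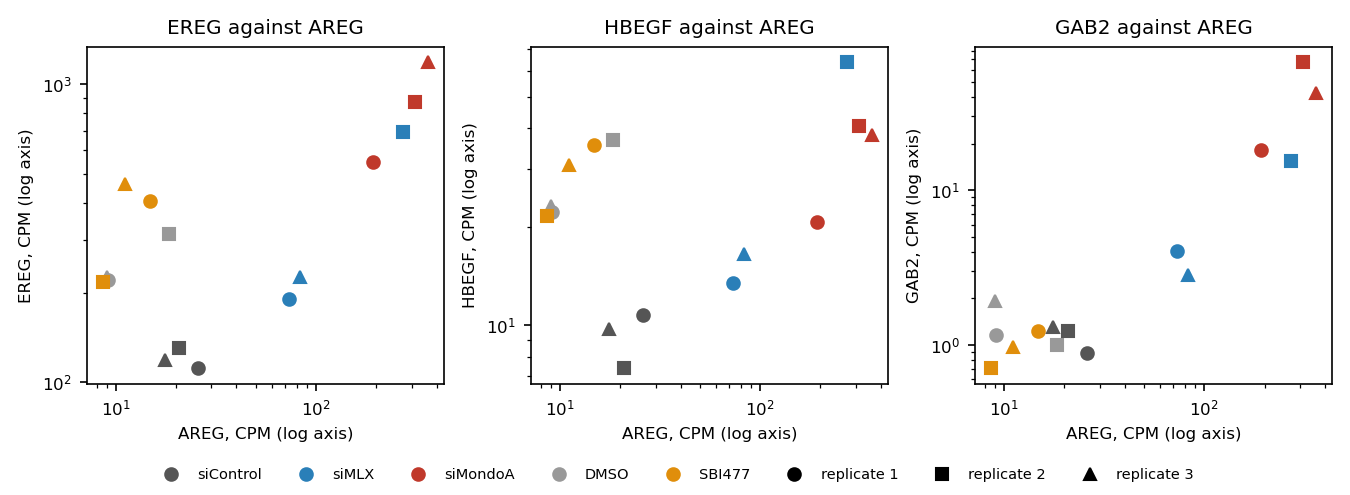
EREG, HBEGF and GAB2 against AREG, each in CPM on log axes, with 1 point per library, coloured by group and shaped by replicate number. EREG climbs with AREG through the siRNA libraries; siMLX replicate 2 lies next to the siMondoA libraries in the EREG panel, and in the GAB2 panel the 6 drug libraries stay between 0.71 and 1.92 CPM.

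The drug comparison asks whether the MondoA inhibitor SBI-477 moves the same transcripts. As labelled, none of the 8 genes tested passed, and neither did any of the 14023 genes tested (0% higher and 0% lower by edgeR). At an unadjusted p under 0.05 edgeR gave 409 genes and DESeq2 444, 1 of them among the 8 by each tool, and DESeq2 called 0 after adjustment. GAB1, at 4 to 18 counts, was too scarce to enter the test.

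AREG was at 9.11, 18.4 and 9.02 CPM in DMSO and at 14.7, 8.60 and 11.1 CPM in SBI-477. EREG was at 221, 314 and 226 CPM in DMSO and at 406, 218 and 463 CPM in SBI-477. HBEGF was at 22.1, 37.0 and 23.1 CPM in DMSO and at 35.6, 21.6 and 30.8 CPM in SBI-477. In all of these the library labelled DMSO 2 was the highest of its group and the library labelled SBI-477 2 the lowest of its group. The groups overlapped, with log2 fold changes of -0.08 ± 0.32 for AREG, 0.51 ± 0.27 for EREG and 0.10 ± 0.25 for HBEGF (edgeR adjusted p = 1.00 for each).

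With replicates 1 and 3 alone, 2 of 8 genes rose. EREG was 0.96 higher in SBI-477 (edgeR adjusted p = 0.000628) and HBEGF 0.56 higher (0.00901), while AREG at 0.52 did not pass (0.0599). That setting called 2575 genes in all, and whether an exchange of the libraries numbered 2 accounts for the difference was not tested. For AREG the authors' deposited table had a log2 fold change of 0.74 (adjusted p = 0.00124), EREG of 0.84 (2.67e-08) and HBEGF of 0.64 (8.11e-06).

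TGFA was at 26.8, 29.2 and 31.8 CPM in DMSO and at 34.7, 33.9 and 36.2 CPM in SBI-477. It was the gene with an unadjusted p under 0.05, and its libraries did not overlap as labelled, but it did not pass after adjustment (0.25 ± 0.11, edgeR adjusted p = 1.00). With the libraries numbered 2 exchanged, its groups would overlap. The authors' deposited table gave 0.13 for TGFA (adjusted p = 0.551). EGFR was at 106, 48.4 and 121 CPM in DMSO and at 115, 110 and 111 CPM in SBI-477 (0.28 ± 0.29). The low library was again DMSO 2, and with replicates 1 and 3 alone EGFR was at -0.01 (edgeR adjusted p = 0.955). ERBB2 was at 16.0, 14.6 and 23.0 CPM in DMSO and at 19.0, 17.0 and 16.4 CPM in SBI-477 (-0.03 ± 0.19), and ERBB3 at 1.40, 1.26 and 3.06 CPM and at 1.03, 1.83 and 1.86 CPM (-0.30 ± 0.42). Neither receptor separated the groups.

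GAB2, whose drug values played no part in its selection, stayed low in every drug library. It was at 35, 23 and 61 counts (1.16, 1.00 and 1.92 CPM) in DMSO and at 36, 17 and 22 counts (1.23, 0.71 and 0.97 CPM) in SBI-477. The groups overlapped, and the difference did not pass as labelled (-0.49 ± 0.36, edgeR adjusted p = 1.00) or with replicates 1 and 3 alone (-0.48, 0.371). The authors' deposited table gave -0.24 for GAB2 (adjusted p = 0.742).

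The SBI-477 effect minus the siMondoA effect, an interaction term in 1 fit of all 15 libraries, differed from 0 for AREG and EREG. It was -3.81 ± 0.63 for AREG (edgeR adjusted p = 0.00431) and -2.32 ± 0.58 for EREG (0.0279), so 2 of 8 genes were lower and 0 higher, against 3.83% and 3.84% of the 13681 genes tested. HBEGF was at -1.72 ± 0.65 and did not pass (edgeR adjusted p = 0.113), nor did TGFA, the receptors or GAB1. For GAB2 it was -5.67 ± 0.89, given with no test. With drug replicates 1 and 3 alone AREG was still called (-3.22, edgeR adjusted p = 0.0141) and EREG was not (-1.87, 0.0663). EREG was also not called without SBI-477 replicate 1 or 2, DMSO replicate 1, siMondoA replicate 2 or 3 or any one siControl library (edgeR adjusted p from 0.0505 to 0.0726).

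Other genes of the pathway were read from 4 lists of 56 genes in all: other ligands, ligand shedding, receptor-proximal signalling, and receptor brakes and turnover. After siMondoA 15 of the 47 tested rose and 6 fell, where 14.2% of all genes tested were higher and 12.9% lower, with a median log2 fold change of 0.10 against 0.00 over all genes. After siMLX 1 rose and 2 fell, where 3.72% and 4.69% of all genes did (median -0.05 against 0.02); with the replicate number as a block, which pairs these libraries, 7 were called in place of 3. In the drug comparison 0 of 50 were called as labelled, where 0% of all genes were, and 10 with replicates 1 and 3 alone. That last setting also called many more genes in all, as given above. Shares of all genes under the block or replicates 1 and 3 are not given, so neither count is a result about the lists. The siMondoA count dropped to 13, 13 and 11 without siMondoA replicate 3, siControl replicate 1 and siControl replicate 2.

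Of the other ligands, NRG4, a neuregulin that binds ERBB4, was at 1.86, 2.25 and 2.22 CPM in siControl, 5.86, 4.45 and 4.96 CPM in siMondoA and 4.77, 5.23 and 5.79 CPM in siMLX. It rose after both siRNAs, by 1.26 ± 0.21 (edgeR adjusted p = 0.00294) and by 1.31 ± 0.21 (0.00616) on the log2 scale. In the drug libraries it was at 3.19, 3.74 and 3.60 CPM in DMSO and 2.32, 2.91 and 1.90 CPM in SBI-477, and its SBI-477 effect minus siMondoA effect was -1.80 ± 0.30 (edgeR adjusted p = 0.00411). NRG2 was the other one tested in the siRNA libraries, at -0.63 after siMondoA (edgeR adjusted p = 0.0543). EGF, BTC and EPGN stayed below 1 CPM in every library. ADAM17, the main sheddase of AREG and HBEGF, rose after siMondoA from 64.5, 72.0 and 68.7 CPM to 93.3, 167 and 150 CPM (1.00 ± 0.25, edgeR adjusted p = 0.0156), 1 of 6 shedding genes tested. After siMLX 0 of 6 passed by edgeR or DESeq2, and 1 was lower at an unadjusted p under 0.05. Of all genes, edgeR called 14.2% higher after siMondoA, and 3.72% higher and 4.69% lower after siMLX.

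Of 18 receptor-proximal genes tested, 6 rose and 3 fell after siMondoA, beside 14.2% and 12.9% of all genes. IRS2, an insulin receptor substrate, rose by 1.20 ± 0.23 (edgeR adjusted p = 0.00575) and the adaptor GRB2 by 0.43 ± 0.10 (0.0129). PIK3R2, a regulatory subunit of phosphatidylinositol 3-kinase, fell from 103, 85.7 and 97.0 CPM to 62.5, 45.0 and 55.4 CPM (-0.81 ± 0.15, edgeR adjusted p = 0.00501). After siMLX 0 of the 18 passed by edgeR, beside 3.72% of all genes higher and 4.69% lower. By edgeR at an unadjusted p under 0.05, 4 were higher and 1 lower, and 3 rose by DESeq2.

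Of 21 genes for brakes and turnover tested, 7 rose and 3 fell after siMondoA, with the same shares of all genes (14.2% and 12.9%). SPRED1, which restrains RAS-ERK signalling, rose by 0.53 ± 0.09 (edgeR adjusted p = 0.00294), and HGS, which sorts receptors for degradation, by 0.88 ± 0.17 (0.00496). The ERK pathway inhibitor SPRY1 fell (-0.64 ± 0.12, edgeR adjusted p = 0.00479), and so did the receptor phosphatase PTPRK (-0.50 ± 0.10, 0.00622). After siMLX PTPRK also fell (-0.78 ± 0.10, edgeR adjusted p = 0.00228), as did LRIG1, which promotes receptor degradation (-0.96 ± 0.17, 0.00922). LRIG1 fell after siMondoA too (-0.68 ± 0.17, edgeR adjusted p = 0.0146). It did not pass in the direct contrast of siMondoA with siMLX (0.28 ± 0.17, edgeR adjusted p = 0.286).

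A list of 12 genes often induced by ERK signalling, chosen with earlier results known, had 7 genes higher and 0 lower after siMondoA. It had 0 lower also by DESeq2 and by edgeR at an unadjusted p under 0.05. Of all genes tested 14.2% were higher and 12.9% lower. The 5 ERK genes that did not pass were DUSP4 (0.28), ETV5 (0.11), ETV4 (-0.09), CCND1 (-0.28) and FOS (-0.31). The median log2 fold change of the 12 was 0.94. FOSL1, an AP-1 subunit, rose by 2.01 ± 0.27 (edgeR adjusted p = 0.00120), EGR1 by 2.84 ± 0.53 (0.00500), IER3 by 2.12 ± 0.40 (0.00525) and EPHA2 by 1.02 ± 0.23 (0.0118). After siMLX 0 of 12 passed by edgeR, where only 3.72% of all genes tested were higher and 4.69% lower. By edgeR at an unadjusted p under 0.05, 3 were higher, and 1 rose by DESeq2. In the direct contrast of siMondoA with siMLX 1 of 12 was higher and 0 lower, beside 6.66% and 6.21% of all genes. In siMLX against siControl the list's median was 0.43, and EGR1 was at 1.49 ± 0.51 (edgeR adjusted p = 0.0964). Of 10 tested receptors outside the EGFR family that use GAB adaptors, 3 fell after siMondoA, a contrast in which 12.9% of all genes fell: PDGFRB (-1.93 ± 0.24, edgeR adjusted p = 0.000782), INSR (-0.58 ± 0.13, 0.0100) and CSF1R (-2.13 ± 0.47, 0.0105). None rose by edgeR after adjustment, and 1 did by DESeq2. CSF1R was at under 2 CPM in all siRNA libraries.

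**Figure D4:**
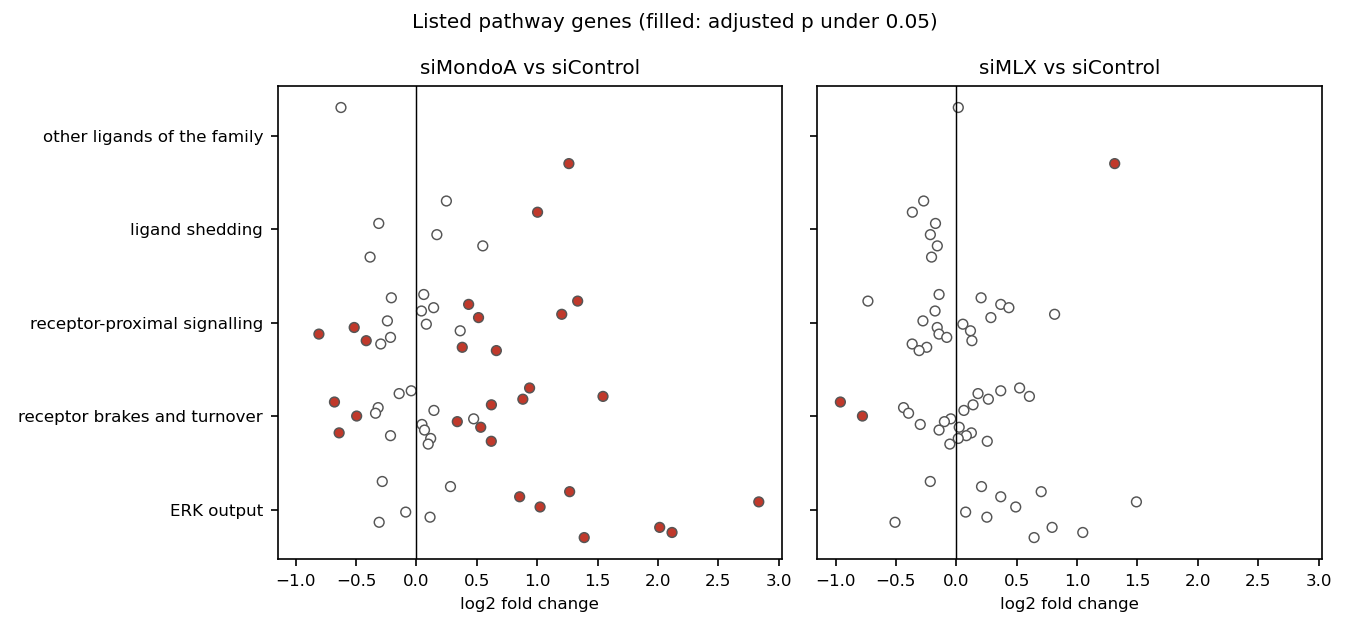
Log2 fold change of each tested gene of the 4 pathway lists and of the ERK output list, in siMondoA (left) and siMLX (right) against the same siControl libraries. Each circle is a gene, filled where the edgeR adjusted p was under 0.05, and the vertical position within a list only separates the points. In the ERK output row 7 circles are filled on the left and 0 on the right. Of all genes tested 14.2% were higher on the left and 3.72% on the right.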

How the data were processed

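PSN-1 RNA-seq libraries, 15 in all, took their groups from the sample titles, 3 per group. Per the labels' protocols, RNA was extracted with Direct-zol kits and Kapa libraries were sequenced as short paired reads. The submitters' processing notes name edgeR, HTSeq 0.6.1, TopHat2 2.1.0 and bcl2fastq 1.8.4, and the builds hg38 and mm10; the kit's strandedness and RNA selection are not given in the sources used here.

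The authors deposited raw counts for 26485 gene symbols, per the file headers, 1 table per experiment. The same deposited tables hold the authors' log2 fold changes and p-values, used here only to check the labels and where named. With DESeq2 and a replicate term the deposited siRNA fold changes were matched with a negligible median absolute difference.

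The counts went into edgeR 4.0.16 under R 4.3.3 (filterByExpr, TMM, quasi-likelihood test) with no term for the replicate number. The siRNA comparisons shared a fit of 9 libraries, the drug comparison had a fit of 6, and all 15 entered the interaction fit. Adjusted p-values are Benjamini-Hochberg values over all genes, with a threshold of 0.05. Standard errors were derived from that test, as the absolute log2 fold change divided by the square root of its F statistic. log2 CPM used a prior count of 2, and RPKM used merged exons of GENCODE v29. DESeq2 1.42.0, other scalings and filters, a replicate block and leaving out libraries were the alternatives; leaving siMLX replicate 2 out of the shared spread was added after seeing the data. The script was tested on simulated data. Figures used Python 3.11.15 and matplotlib 3.10.9. Floors cover counting error only.

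All 9 genes are named; from each pathway list, up to 4 called genes with the smallest adjusted p; per gene, the 3 genes with the highest Pearson r; and MLXIP and MLX. CHAC1, TXNIP, NRG2 and the scarce ligands were named after their values were seen. The genes followed and the lists were chosen with earlier results of these data known. Not every gene the rule allows is named for each contrast, and some are not reported here. Same-numbered libraries of siMLX and siControl deviated together (r = 0.27, 0.19 and 0.36), so their numbers were taken to pair them. Other same-numbered groups did not meet that criterion. The blocked fit changed no call of the 8 genes tested in siMLX against siControl.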

Additional observations from a re-analysis of the deposited data

Results flagged for a closer look

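For EGFR the effects of both siRNAs differed by the direct contrast of siMondoA with siMLX (log2 difference 0.73 ± 0.20, edgeR adjusted p = 0.0382). For ERBB3 they differed in the opposite direction (-1.34 ± 0.31, edgeR adjusted p = 0.0200). The interaction of drug and siRNA effects was -3.81 ± 0.63 for AREG (edgeR adjusted p = 0.00431) and -2.32 ± 0.58 for EREG (0.0279). As given above, the EGFR, ERBB3 and EREG calls were each lost when some libraries were left out. The interaction also uses the drug libraries numbered 2, which went against the other pairs. Samples far from their group were not sought by a gap test, because each group has 3 libraries.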

How the results depend on the processing

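Most values held: of the alternative values computed, 559 kept direction and side of the threshold, 26 newly passed it, 32 no longer passed, 25 changed sign and 2 untested values moved. With siMLX replicate 2 left out of the shared spread, an alternative chosen after seeing the data, 4 of 8 genes and 23 pathway genes were called after siMondoA, including EGFR (edgeR adjusted p = 0.0416). Library totals, other scalings and other filters reversed no direction among the 9 genes. GAB1 had at most 18 counts per library, which limits its precision. The causes were not tested unless fewer libraries gave the change. For most of these settings the count over all genes is not given here. Their counts are therefore set only beside the main counts.

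In siMLX against siControl, 3 pathway genes were called, 6 by DESeq2 and 7 with the replicate block. In siMondoA against siMLX, 2 of 8 genes were called, 4 by DESeq2, 5 with the replicate block and 0 with only these libraries fitted. In siMondoA against siControl the deviations of same-numbered libraries correlated at r = 0.14, 0.088 and 0.0027, which did not meet the pairing criterion. Whether these libraries were paired is not known. There the replicate block called 4 of 8 genes, adding EGFR (edgeR adjusted p = 0.00182). With drug replicates 1 and 3 only, 2 genes and 10 pathway genes were called in SBI-477 against DMSO, AREG turned to 0.52 and EGFR to -0.010, and in the interaction 1 gene was called, ERBB2 turned to -0.024 and GAB1 to -0.099.

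Leaving out 1 library at a time, genes called ranged from 2 to 5 after siMondoA, 0 to 4 after siMLX, 0 to 6 between them and 1 to 2 in the interaction, and pathway genes after siMondoA from 11 to 21. Ranges of log2 fold changes that crossed 0 were -0.21 to 0.090 for ERBB2 after siMondoA, -0.30 to 0.054 for EGFR and -0.29 to 0.089 for GAB1 after siMLX, and -0.27 to 1.15 for HBEGF between them. In the drug comparison they were -0.30 to 0.34 for AREG, -0.055 to 0.37 for HBEGF, -0.031 to 0.53 for EGFR, -0.16 to 0.19 for ERBB2 and -0.52 to 0.23 for ERBB3. In the interaction they were -0.11 to 0.30 for ERBB2 and -0.064 to 0.57 for GAB1.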
